A study of Mus musculus with 5 samples.

Results

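Across the mouse fetal testis, 657 of 4092 merged CREB regions (16.1%) held a peak at every stage examined and lay at an end of a protein-coding gene. They were selected on the peak lists themselves. The 3 CREB lists were merged wherever peaks overlapped by at least 1 bp on the assembled chromosomes, and a region was kept when it held a peak of each stage and overlapped the 1000 bp on either side of a gene end in RefSeq (build mm10). Presence at every stage and closeness to a gene end were therefore the grounds of choice and are described here without a test. All-stage regions numbered 772, of which the other 115 lay away from such ends.

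In CUT&RUN, a nuclease tethered by an antibody releases the DNA around the antibody's target. Each assay took 100000 cells from dissociated mouse male gonads, after a 70 µm filter. A CREB antibody was used at 3 embryonic stages (E13.5, E16.5 and E18.5, in days of gestation), and the sole H3K4 library is of E18.5. Left unnamed by the labels are the methylation state of H3K4, the mouse strain and whether embryos were pooled, and no genetic change or treatment is named for any group. Each antibody and stage had 1 library, and the values below carry no p-value because nothing was replicated. An IgG library, whose title and other labels give different stages, was not analysed here. The lists held 862, 3528 and 2957 CREB peaks in stage order and 21211 H3K4 peaks. Nearly all peaks of a list had 1 width, which was 150, 630 and 160 bp for CREB and 210 bp for H3K4, so an E16.5 peak overlaps other features more readily. No read depth or peak score is known, and a site without a listed peak may still have been bound. The peaks come from all gonadal cells together, and fewer cells of a type with a bound site and less binding per cell cannot be told apart.

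CREB is a transcription factor of the basic leucine zipper class that binds the cAMP response element (CRE), a palindrome, or its shorter core. When cAMP rises, protein kinase A phosphorylates CREB, which then recruits coactivators and turns on nearby genes. In the testis cAMP carries hormone signals, such as that of luteinising hormone to the steroid-making Leydig cells. H3K4 methylation marks the nucleosomes around active gene starts.

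The CRE was searched for as the exact letters TGACGTCA in RefSeq promoters (300 bases each, from 250 before to 50 after a start). Of the 657 regions, 553 had such a stretch with a start within 1000 bp, and at 87 of these (15.7%, 95% Wilson interval 12.9 to 19.0, counting error only) the stretch held a full CRE. At 83 of the 87 a full CRE lay wholly inside the merged region, and at the other 4 it lay beside it. A full CRE named for a gene below is one in its promoter stretch, and it need not lie inside the region. The following 6 stretches are shown because their CRE lay closest to the midpoint of the E18.5 peak among those outside every annotated gene body. Each is read 5′ to 3′ on the strand of its gene, upstream of the start, with the CRE in capitals (RefSeq, mm10).
Ift57, chr16:49699096-49699175, plus strand: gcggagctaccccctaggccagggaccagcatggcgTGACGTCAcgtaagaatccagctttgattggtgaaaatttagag
Habp4, chr13:64161715-64161794, plus strand: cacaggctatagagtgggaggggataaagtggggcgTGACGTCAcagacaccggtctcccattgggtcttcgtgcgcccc
Trim26, chr17:36837023-36837102, plus strand: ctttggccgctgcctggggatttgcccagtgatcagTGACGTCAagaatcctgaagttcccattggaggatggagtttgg
Nup133, chr8:123949289-123949368, minus strand: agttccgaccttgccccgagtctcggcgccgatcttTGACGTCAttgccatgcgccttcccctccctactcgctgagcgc
Zcchc17, chr4:130359993-130360064, minus strand: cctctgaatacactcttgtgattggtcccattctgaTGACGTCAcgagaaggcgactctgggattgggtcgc
Dctn3, chr4:41723201-41723280, minus strand: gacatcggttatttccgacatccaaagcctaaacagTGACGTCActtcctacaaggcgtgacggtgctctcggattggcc

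Ift57 encodes a subunit of the intraflagellar transport machinery of cilia. Its CRE began 162 bp before the gene start, and its centre lay 19, 16 and 1 bp from the peak midpoints, in stage order. At Habp4, which encodes an RNA- and hyaluronan-binding protein, the distances were 9, 7 and 5 bp. The CRE of Trim26, a gene of a TRIM-type ubiquitin ligase, lay 1, 20 and 6 bp from the midpoints. Nup133, a scaffold component of the nuclear pore, had its CRE at 25, 20 and 7 bp. For Zcchc17, which encodes a zinc-knuckle RNA-binding protein, and for Dctn3, a dynactin subunit gene, the distances were 13, 6 and 7 bp and 4, 1 and 8 bp. In these 6 regions every midpoint lay within 25 bp of the CRE, at all stages. Glyr1, Emc10, Pgap2 and Styxl1 completed the 10 regions with the closest CRE. At Pgap2, a gene of GPI-anchor remodelling, the E13.5 midpoint lay 113 bp away, whereas the E16.5 and E18.5 midpoints lay 0 and 7 bp away.

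The immediate early gene Fos and the polyamine regulator Oaz1 had no full CRE in the stretch and carried the CRE core, TGACG. Both are shown because Fos is a classical cAMP target and Oaz1 stood near the head of every list. The core in capitals lies upstream of the start on the strand of the gene.
Fos, chr12:85473725-85473801, plus strand: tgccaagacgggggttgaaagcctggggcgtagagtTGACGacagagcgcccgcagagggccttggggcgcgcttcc
Oaz1, chr10:80826406-80826475, plus strand: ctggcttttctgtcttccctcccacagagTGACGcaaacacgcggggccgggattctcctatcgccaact

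Both genes had 2 cores upstream of the start, and the stretch shown is around the one nearer to the E18.5 midpoint. At Fos this core began 129 bp before the start and its centre lay 38.5 bp from the E18.5 midpoint. The core shown for Oaz1 began 221 bp before the start and lay 19.5 bp from that midpoint. A match describes letters in the window and is not evidence of a bound site.

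Gene promoters at the all-stage regions held CRE letters more often than promoters without a CREB peak. Among 796 promoter records of 672 genes at these regions, 114 held a full CRE (14.3%, 12.1 to 16.9), against 2.23% of all 21263 promoters of coding genes. Records of nearby starts can share bases, and the 114 held 92 separate CRE sites. The interval treats the records as independent and is therefore too narrow. For 8178 promoters the start had an H3K4 peak and no merged CREB region within 1000 bp. Of these, 0.587% (0.443 to 0.777) held a full CRE, and with neither nearby the share was 0.851%. The CRE core, counted on either strand and so including every full CRE, was found in 70.0% (66.7 to 73.1) of promoters at all-stage regions. It was found in 21.9% of H3K4 promoters without CREB and 23.6% of all promoters. Allowing 1 mismatch outside the central CG gave 33.9% (30.7 to 37.3), against 3.80% at H3K4 promoters without CREB and 6.63% overall.

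Shares also differed among the CREB classes. At gene ends with a peak of E16.5 and E18.5 only (1321 regions, 1450 promoters) the full CRE share was 8.62% (7.28 to 10.2), and at those with a peak of E16.5 only (683 regions) it was 11.0%. At gene ends with a peak of E18.5 only (360 regions) it was 0.804% (0.274 to 2.34), with 3 of 373 promoters. The core share was 53.9% (51.3 to 56.4), 51.1% and 34.6% in these classes. The excess of all-stage promoters over those of E16.5 and E18.5 only, 5.70 percentage points for the full CRE, reversed among regions that stood early in the E16.5 list. With an E16.5 peak among the first 862 of the list, the shares were 16.1% (13.4 to 19.1) at all-stage promoters and 22.2% (17.3 to 28.1) at the others, a difference of -6.13 points. Later in the list they were 7.41% (4.29 to 12.5) and 6.12% (4.91 to 7.61). The core share was the higher at all-stage promoters in both portions, with overlapping intervals. It was 72.4% (68.8 to 75.7) against 67.1% (60.7 to 72.9) early and 60.5% (52.8 to 67.7) against 51.4% (48.6 to 54.2) later. The sources used here do not say what the order of a list means.

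**Figure D1:**
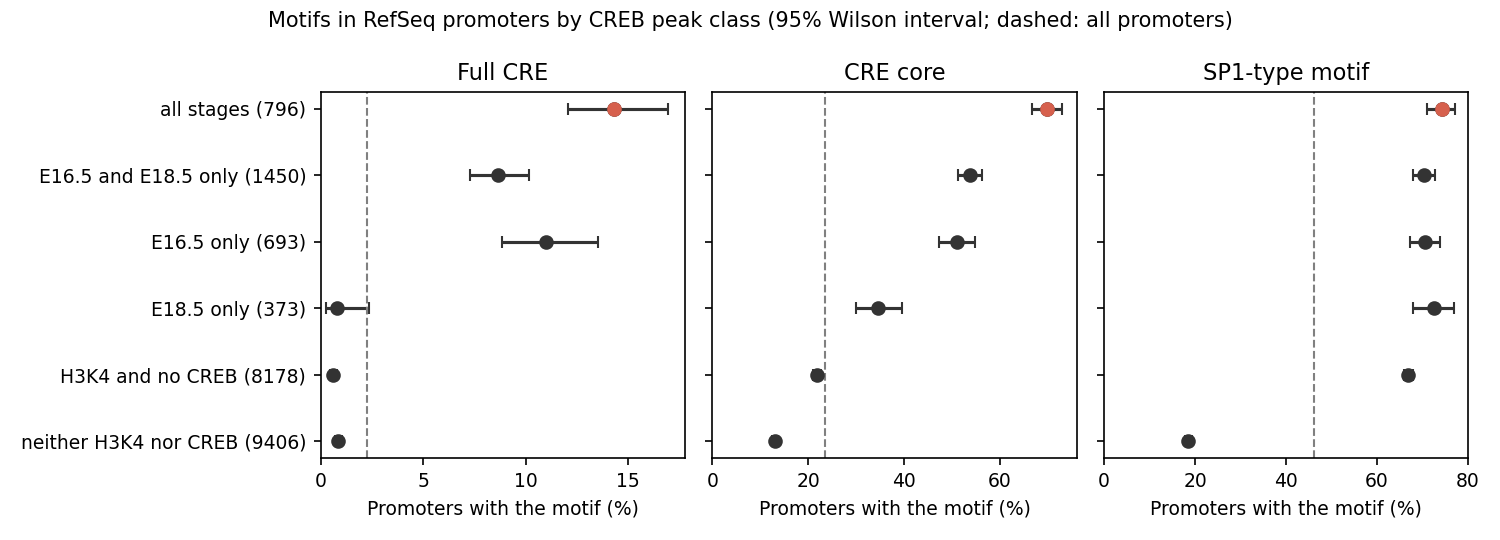
Share of RefSeq promoters (percent) that hold the full CRE, the CRE core or the SP1-type motif, by class of CREB peak, with 95% Wilson intervals and the number of promoters in brackets; the dashed line is the share of all promoters. The all-stage promoters sit at 14.3% and 70.0% for the CRE forms, while the SP1-type share lies between 67.0% and 74.3% in every class with CREB or H3K4.

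Other promoter motifs, searched as exact letters on both strands, set these values in context. The SP1-type motif GGGCGG was in 74.3% of promoters at all-stage regions, 70.4% at those of E16.5 and E18.5 only and 67.0% at H3K4 promoters without CREB, against 46.2% of all. The CCAAT box was in 54.2% (50.7 to 57.6), 49.6% and 32.9%, against 38.2%. The ETS motif CCGGAAGT was in 10.7%, 9.72% and 7.35%, against 5.15%, and the NRF1 motif GCGCATGC in 4.77%, 6.41% and 5.26%, against 3.52%. Of letters close to the CRE, TGACGCAA was in 3.14% (2.14 to 4.60), 2.14% and 0.367%, against 0.644%, and the XBP1-type TGACGTGG in 1.38%, 1.17% and 0.697%, against 0.705%. The E-box CACGTG was in 10.9% at all-stage regions against 7.84% of all promoters, and the YY1-type AAGATGGC in 5.91% against 3.05%. The AP-1-like TGANTCA was in 3.77% against 6.99%, and TATAAA in 4.65% against 12.6%. H3K4 promoters without CREB stood at 10.1%, 3.95%, 4.51% and 6.10% for these last 4. Some motifs can share bases, as the CRE core does with the full CRE.

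Base composition was similar among the CREB classes. The median promoter at an all-stage region had 24 CpG in its 300 bases (quartiles 17 to 29) and 61.3% GC. The medians were 22.5 CpG at E16.5 and E18.5 only, 21 at H3K4 promoters without CREB and 13 over all promoters. Among promoters with more than 21 CpG, the full CRE share was 17.0% (13.9 to 20.6) at all-stage regions, 9.47% at E16.5 and E18.5 only, 11.8% at E16.5 only, 0.990% at E18.5 only and 0.807% (0.572 to 1.14) at H3K4 promoters without CREB. Among promoters with more than 6 and up to 21 CpG, the shares were 11.0%, 7.52%, 10.4%, 0.629% and 0.340%. The order of these values was the same in both CpG ranges. In the lower range the all-stage and E16.5 only intervals overlapped (7.98 to 15.0 and 7.31 to 14.5), and E18.5 only had 1 of 159 promoters. Within 50 bp of the latest peak midpoint, E16.5 only stood higher, with overlapping intervals. The full CRE share there was 12.45% (8.91 to 17.1) of 249 regions, against 8.84% (6.33 to 12.2) of 362 all-stage regions. With 1 mismatch these shares were 22.5% and 21.3%, and for the core 44.2% and 46.4%.

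The full CRE lay nearer to the E16.5 midpoint than to the others. At the 87 regions with one in a promoter stretch, the median distance from the peak midpoint was 75 bp at E13.5 (quartiles 27.5 to 120), 46 bp at E16.5 (10.5 to 83.5) and 70 bp at E18.5 (20 to 106.5). The CRE lay within 25 bp of the midpoint in 21.8% (14.4 to 31.6), 44.8% (34.8 to 55.3) and 27.6% (19.3 to 37.8) of regions. The E16.5 midpoint was the nearer in 59 of 87 regions against E13.5, and in 55 against E18.5, with 2 equal. At the 112 regions of E16.5 and E18.5 only with a full CRE in a stretch, the E16.5 midpoint was likewise the nearer in 79. The CCAAT box gave another order. In 335 all-stage regions with one, the medians were 52.5, 52.5 and 44.5 bp, and the E16.5 midpoint was nearer than that of E18.5 in 144 and farther in 184. These are counts of regions within 1 set of libraries, and E16.5 is also the list with the 630 bp peaks; the part of peak width in this order was not tested.

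**Figure D2:**
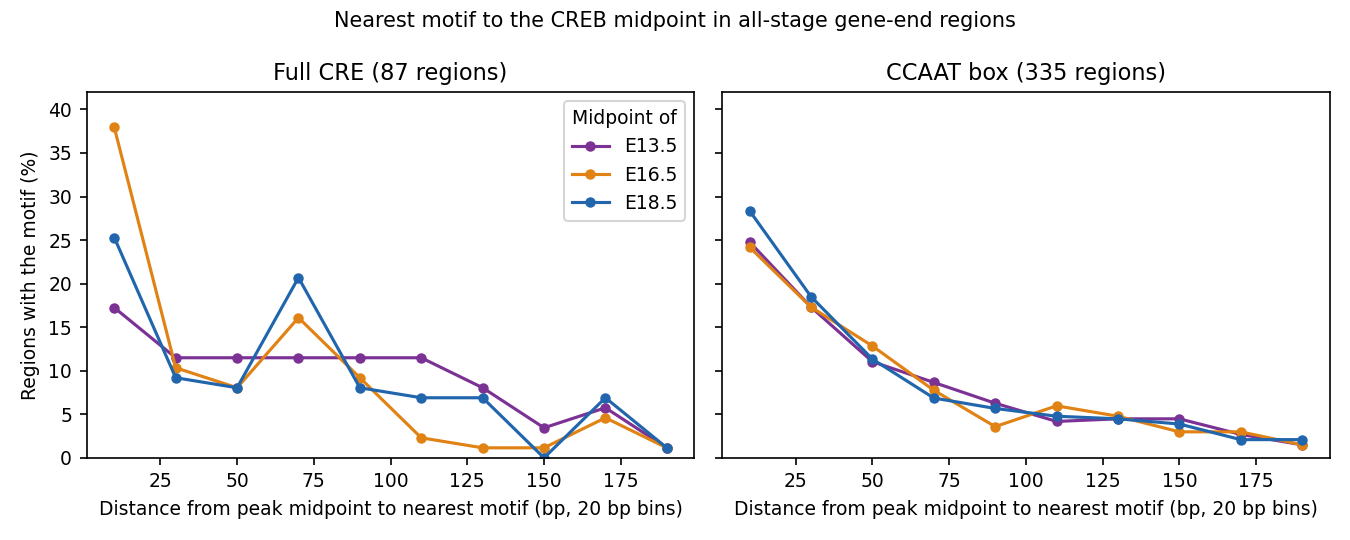
Percent of all-stage gene-end regions by distance (bp) from the peak midpoint to the nearest full CRE (left, 87 regions) or CCAAT box (right, 335 regions) in 20 bp bins, with 1 line per stage. The first bin holds 37.9% of full CRE at E16.5, 25.3% at E18.5 and 17.2% at E13.5, whereas the CCAAT lines lie close together.

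Measured from the gene start, the centre of the full CRE had a median place of -52.5 bp (quartiles -107.5 to -22.5), where negative values lie upstream. Where the E18.5 midpoint was within 250 bp of the gene end, a promoter stretch at the region held a full CRE in 17.0% (13.9 to 20.7) of 470 cases, and where it was farther away in 8.43% (4.14 to 16.4) of 83. In the farther cases the stretch can leave out the peak, so these 2 shares do not compare like with like. At regions of 1 coding gene and of 2 or more, the shares were 15.1% and 17.1%, with overlapping intervals (11.8 to 19.0 and 12.3 to 23.4). With H3K4 midpoints on both sides of the CREB midpoint the share was 16.3%, and without them 15.4%.

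Where a region held 2 or more peaks of a stage (10 regions at E13.5 and 12 at E18.5), the midpoint nearest the region's centre was used. The overlap that joined the peaks limits how far apart the midpoints of the 3 stages can lie. Their distances are therefore a description. The greatest distance between any of the 3 had a median of 61 bp (quartiles 32 to 98, range 1 to 499), and in 498 regions (75.8%) it was at most 100 bp. The median was 29 bp between E13.5 and E18.5, 39 bp between E13.5 and E16.5 and 35 bp between E16.5 and E18.5. At Utp15 and Ankra2 the midpoints spanned 1 bp, and at Foxred1 and Srpr, the latter a gene of the signal recognition particle receptor, 2 bp, as at Zfand2a. The widest spans were 499 bp at 9130023H24Rik and Armc5, 483 bp at Sox12, which encodes a SOX transcription factor, and 458 bp at Rbm15, a gene of an RNA-binding protein in the m6A methylation machinery. Most regions were as wide as the E16.5 peak, with 621 of exactly 630 bp. Merged peaks reached 926 bp at Ifrd1, 877 bp at Tmem253 and Zfp219 and 838 bp at Sox12.

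The distance from the midpoint to the nearest gene end had a median of 107 bp at E13.5 (quartiles 52 to 188), 104 bp at E16.5 (49 to 205) and 107 bp at E18.5 (56 to 182). It was at most 250 bp in 83.0%, 81.4% and 84.3% of regions. In 567 regions a gene end lay inside the region itself. Another 59 came within 250 bp, 15 within 251 to 500 bp and 16 within 501 to 1000 bp. Just inside the limit stood Mnt at 999 bp, Gm20783 at 990 bp and Iba57 at 877 bp. The nearest all-stage regions beyond it were at Aktip (1002 bp), Kdm6b (1032 bp) and Sin3a (1076 bp).

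Nearly all of these ends were gene starts. Strand was known for every gene at 538 regions, and 505 of them (93.9%, 91.5 to 95.6) touched starts only, 32 a start and a far end, and 1 a far end only. Ends of 2 or more coding genes fell in 195 regions (29.7%, 26.3 to 33.3), against 22.5% (20.3 to 24.8) at E16.5 and E18.5 only and 21.7% at either single stage. Among regions with ends of 2 genes and known strands, 123 of 149 (82.6%, 75.7 to 87.8) lay between genes read away from each other, against 75.2% (69.2 to 80.4), 70.5% and 70.5%, and 25 between genes read the same way. The region of Wdr74, Stx5a and 1700092M07Rik touched 3 genes, as did those of Gm20517, Bysl and Med20 and of Esrra, Prdx5 and Trmt112. The single-stage E18.5 regions are 160 bp wide and the E16.5 ones 630 bp.

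H3K4 peaks of E18.5 stood beside almost every region. At 627 of 657 (95.4%, 93.6 to 96.8) an H3K4 midpoint lay within 1000 bp of the latest CREB midpoint, which is that of E18.5 where there is one, against 93.6% at E16.5 and E18.5 only, 92.7% at E16.5 only and 90% at E18.5 only. Of the 846 genes with an end at a region, 818 (96.7%) had an H3K4 peak at an end, against 52.7% of all coding genes. An H3K4 peak overlapped the region itself in 73.4% (69.8 to 76.6), against 71.5%, 72.3% and 35%, a measure that follows region width. H3K4 midpoints stood on both sides in 33.0% (29.5 to 36.7), against 26.6% (24.3 to 29.0), 23.3% and 21.9%.

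Read in the direction of the gene, the difference lay upstream. At 385 all-stage regions with the start of 1 coding gene, 47.5% (42.6 to 52.5) had an H3K4 midpoint in the 1000 bp upstream, against 36.5% (33.3 to 39.8) of 849 regions of E16.5 and E18.5 only, 38.5% and 37.7%. Downstream the shares were 78.4%, 79.6%, 78.2% and 75%. Only the E18.5 CREB library shares the stage of the H3K4 library.

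**Figure D3:**
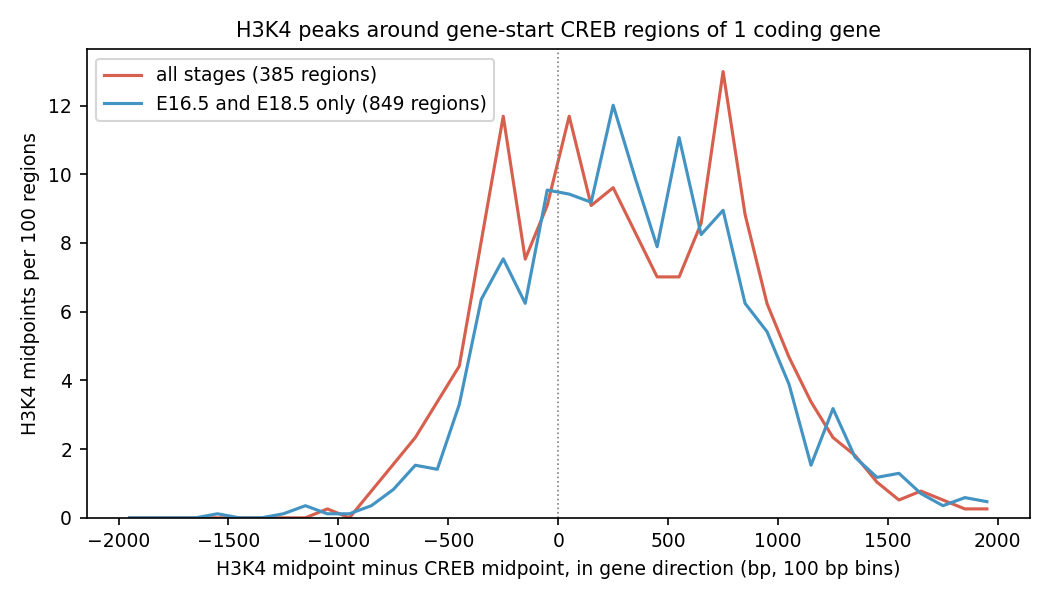
H3K4 midpoints per 100 regions in 100 bp bins of distance from the CREB midpoint, in gene direction (negative is upstream), at gene-start regions of 1 coding gene. The all-stage line (385 regions) has its highest bin at 750 bp downstream (12.99). The bins at 250 bp upstream and at 50 bp downstream follow with equal values (11.7). Of its regions, 47.5% have an H3K4 midpoint within 1000 bp upstream, against 36.5% of those of E16.5 and E18.5 only.

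No H3K4 midpoint lay within 1000 bp at 30 regions. The earliest in the lists among them were Zswim6, Zc3h4, which encodes a zinc finger protein that restrains non-coding transcription, Prrc2a, Irf2bp2 and Gm20783. The nearest H3K4 midpoint stood 1100 bp away at Zswim6, 1959 bp at Zc3h4, 1107 bp at Prrc2a, 1058 bp at Gm20783 and 10298 bp at Irf2bp2. Irf2bp2 encodes a corepressor, and its 3 CREB midpoints lay within 23 bp of each other.

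The regions touched 846 of 21887 protein-coding genes, or 3.87%. Each gene list is set beside this share, and as presence at all stages chose the regions, the counts describe them. The share was above 3.87% in 29 of 41 lists. Most genes at the regions carried H3K4, and among the 11534 coding genes so marked the share was 7.09%. With such genes alone, 26 lists stood above 7.09%. Zfp genes (6.76%), RNA helicases (6.98%), the vacuolar ATPase (6.25%) and the CREB and ATF family (6.25%) then fell below. Replication-dependent histones rose above it (9.09%), and oxidative phosphorylation stayed near it (8.54%).

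Genes that cAMP is known to induce were among the lists with the highest share, with 8 of 34 (23.5%). Fos encodes a component of the AP-1 transcription factor, and its midpoints lay 183, 151 and 165 bp outside the gene, in stage order. Dusp1, a MAP kinase phosphatase gene, had them at 256, 208 and 213 bp outside, and its promoter held a full CRE. Per1, a repressor of the circadian clock, had them at 140, 142 and 61 bp outside. All 3 genes had their midpoints upstream at every stage. At the immediate early gene Ier2 they lay 36, 71 and 70 bp outside. Maff, a small MAF factor gene with a full CRE, had them at 868, 858 and 848 bp inside the gene, and Ccna2, which encodes cyclin A2, at 953, 966 and 889 bp inside. The CRE of Maff began 29 bp before a RefSeq start inside the gene and lay 25 bp from the E18.5 midpoint. Measured from the outer gene ends, Maff and Ccna2 were lost with a window of 500 bp, which left 6 of 34. Sik1, whose kinase restrains CREB coactivators, and Jun complete the list, with midpoints from 157 to 170 bp and from 133 to 190 bp outside the gene.

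The circadian clock list had 3 of 17 genes (17.6%). They were Per1, Cry2, a second clock repressor, with midpoints 125, 92 and 94 bp outside the gene, and Nr1d2, which encodes a nuclear receptor of the clock, at 575, 359 and 544 bp inside. The genes of CREB's own machinery had shares a little above 3.87%, each resting on 1 gene. Of the CREB and ATF family, 1 of 19 (5.26%) had an all-stage region, which was Creb3l2, a membrane-bound relative (95, 56 and 95 bp outside). Of coactivator and protein kinase A genes it was 1 of 16 (6.25%), Prkar1b, a regulatory subunit (749, 686 and 730 bp inside). Among genes with H3K4 at an end, the family had 1 of 16 (6.25%) and the coactivator list 1 of 14 (7.14%). Of all such coding genes it was 7.09%, so neither list stood clearly above. Creb1 itself had peaks at E16.5 and E18.5, 131 and 110 bp from its end, and none at E13.5. Crem likewise had peaks at those stages alone.

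Cholesterol synthesis and uptake had 6 of 24 genes (25%), and none of the 6 had an exact full CRE in the promoters read. The same held for the 8 proteasome, 11 chaperone and 9 splicing factor members. Hsd17b7, which acts late in cholesterol synthesis, had its midpoints 43, 58 and 90 bp outside the gene, and the isomerase gene Idi1 at 85, 78 and 73 bp inside. Hmgcs1, a synthase gene of the mevalonate pathway, had them at 169, 119 and 201 bp outside. Others were Srebf2, the sterol-responsive regulator of these genes, and Dhcr7, which makes cholesterol in its last step.

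Among genes of the unfolded protein response and protein folding in the endoplasmic reticulum, 6 of 25 (24%) had an all-stage region. Ppp1r15a, whose product restores translation after stress, had midpoints 79 bp outside at E13.5, 55 bp inside at E16.5 and 87 bp outside at E18.5, and a full CRE. Eif2ak3 (the stress kinase PERK) had them at 133, 129 and 111 bp outside, Dnajb11 at 144, 154 and 204 bp, and the chaperone gene Hspa5 (BiP) at 177, 193 and 161 bp. Dnajb9 and Hsp90b1 were the remaining members. The broad chaperone list had 11 of 86 genes (12.8%), with Hspbp1, Dnajc17, Hspa4 and Hspa14 among them.

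Genes of genome upkeep and division were found too. DNA repair had 6 of 36 genes (16.7%). Xab2, which works in transcription-coupled repair and splicing, had a full CRE and midpoints 60, 54 and 53 bp outside the gene, at places 7, 8 and 12 of the 3 lists. The mismatch repair gene Msh3 had midpoints 84, 72 and 45 bp inside. The cell cycle and replication list had 4 of 40 (10%), with Anapc10, Cdc6 and Pcna beside Ccna2. Centrosome and cilium genes had 11 of 67 (16.4%). Among them, Bbs7 had its midpoints 1057, 1070 and 993 bp beyond its far end, in the region counted for Ccna2. Cep57, a centrosomal gene with a full CRE, had its midpoints 151, 125 and 137 bp outside the gene and places 5, 1 and 2. That CRE lay outside the merged region, 374 bp from the E18.5 midpoint. Tubgcp6, of the microtubule-nucleating ring complex, had them 14, 2 and 24 bp inside.

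Protein turnover and synthesis gave the following counts. The proteasome had 8 of 51 (15.7%), with Psmb6, Psmc4, Psme2 and Psme3, and autophagy 4 of 26 (15.4%), with Map1lc3a, Nbr1, Gabarapl2 and Wipi1. Cytosolic ribosomal proteins had 10 of 83 (12.05%). Rps13 and Rps29 had all midpoints within 20 bp of an end, and Rps9, with a full CRE, lay 12, 23 and 82 bp inside. Rpl41 had a region at its start (41, 48 and 46 bp outside) and a second one beyond its far end, which was also at the start of Zc3h10. Translation initiation factors had 4 of 48 (8.33%), aminoacyl-tRNA synthetases 3 of 36 (8.33%) and ubiquitin-conjugating enzymes 1 of 37 (2.70%). Of the 4 initiation factor genes, Eif4g1 had its midpoints 470, 353 and 393 bp beyond its far end, in a region at the start of Fam131a. The polyamine list had 1 of 10, Oaz1, whose midpoints lay 234, 246 and 238 bp outside the gene at places 3, 6 and 1.

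Mitochondrial genes were spread over several lists. Mitochondrial ribosomal proteins had 9 of 78 (11.5%), import components 3 of 25 (12%), carriers of the Slc25 family 5 of 47 (10.6%) and oxidative phosphorylation 7 of 97 (7.22%). Ndufb2 and Ndufa11, subunits of complex I, had a full CRE, with midpoints 161, 71 and 59 bp inside and 672, 581 and 640 bp outside the gene. So did Slc25a36, a carrier of pyrimidine nucleotides, at 212, 174 and 147 bp outside. The CRE of Ndufa11 lay outside the merged region, 486 bp from the E18.5 midpoint. A full CRE was found for 2 of the 7 oxidative phosphorylation members and 1 of the 5 carriers. It was found for 0 of the 9 ribosomal and 0 of the 3 import members. Peroxisome biogenesis had 0 of 17.

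In RNA and nuclear functions, splicing factors had 9 of 81 (11.1%), RNA polymerases with Mediator and general factors 8 of 104 (7.69%), nuclear pore and transport 4 of 51 (7.84%), histone-modifying enzymes 4 of 54 (7.41%) and RNA helicases 3 of 53 (5.66%). Gtf3c1 and Gtf2f1, general factors of RNA polymerases III and II, each had a full CRE, with midpoints from 102 to 121 bp and from 144 to 157 bp outside. Rab GTPases had 7 of 59 (11.9%), with a full CRE at Rab5a, the early endosome member. Other traffic genes had 5 of 131 (3.82%) and the vacuolar ATPase 1 of 23 (4.35%), both near the overall share, as were Zfp zinc finger genes with 20 of 397 (5.04%). Replication-dependent histones had 2 of 62, H2bc11 and H2ac11, which share 1 region with a full CRE.

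The lists of markers of testicular cell types are short, and their counts cannot be told from the overall 3.87%. Of Leydig cell genes, 1 of 14 (7.14%) had an all-stage region, Fdxr, which supplies electrons to the mitochondrial steroid enzymes, with midpoints 130, 136 and 79 bp outside the gene. Counts were 0 of 14 for Sertoli cells, 0 of 17 for fetal germ cells, 0 of 15 for interstitial progenitors, 0 of 10 for endothelial cells and 0 of 10 for macrophages and blood, with upper interval bounds from 18.4% to 27.8%. Star, Cyp11a1, Nr5a1, Sox9 and Amh had no CREB peak at an end at any stage, while an H3K4 peak stood at an end of each, and Ddx4 had neither. For Star, which imports cholesterol into mitochondria, the nearest CREB midpoint of the 3 lists was 160766 bp from its nearest end. Tissue-restricted families gave 0 of 39 Hox genes, 0 of 53 keratins and 0 of 1107 olfactory receptors. Peak lists hold no expression level, so these markers do not measure which cells were present.

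**Figure D4:**
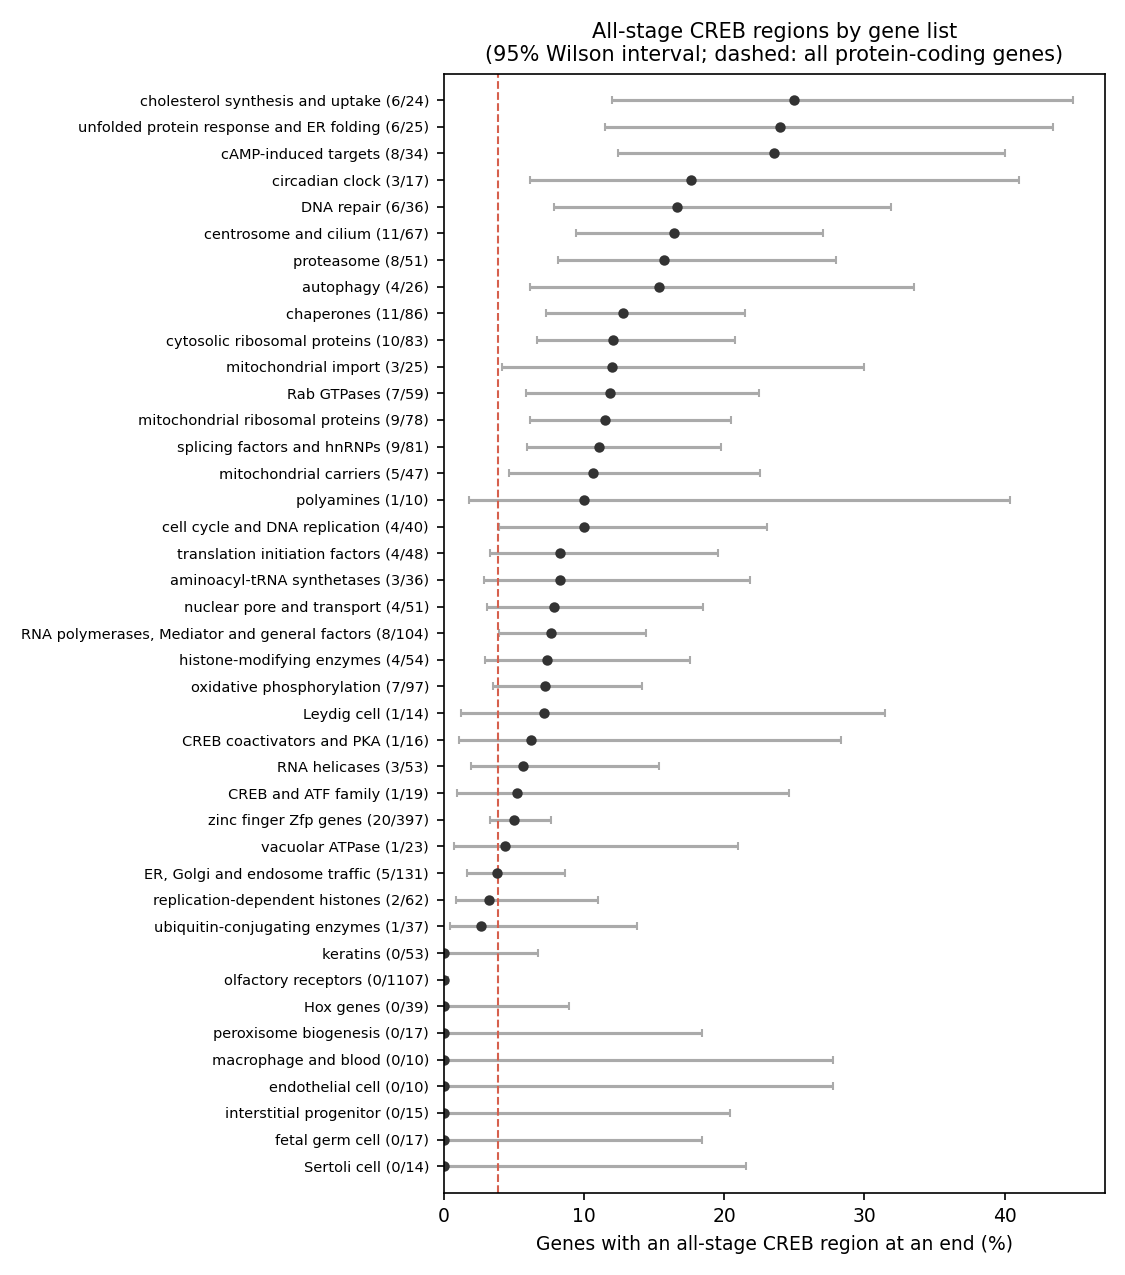
Percent of the genes of each list with an all-stage CREB region at an end, with 95% Wilson intervals (counting error only) and counts in brackets; the dashed line is the 3.87% of all protein-coding genes. Cholesterol (25%), protein folding stress (24%) and cAMP target genes (23.5%) stand highest, and the 9 lists at 0 are mostly cell type markers and tissue-restricted families.

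The regions took up most of the E13.5 list and the early part of the later ones. They held 667 of the 834 E13.5 peaks on assembled chromosomes (80.0%), 18.6% of the E16.5 list (657 of 3526) and 22.7% of the E18.5 list (669 of 2947). Over 10 successive parts of the list, the share fell from 79.2% in the first to 0.283% in the last at E16.5 and from 80.3% to 0.680% at E18.5. At E13.5 it was 83.8% in the first and 72.4% in the last. The median places of the regions were 430, 437 and 448. As presence in the short E13.5 list was a ground of choice, these values only describe where the regions stand.

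**Figure D5:**
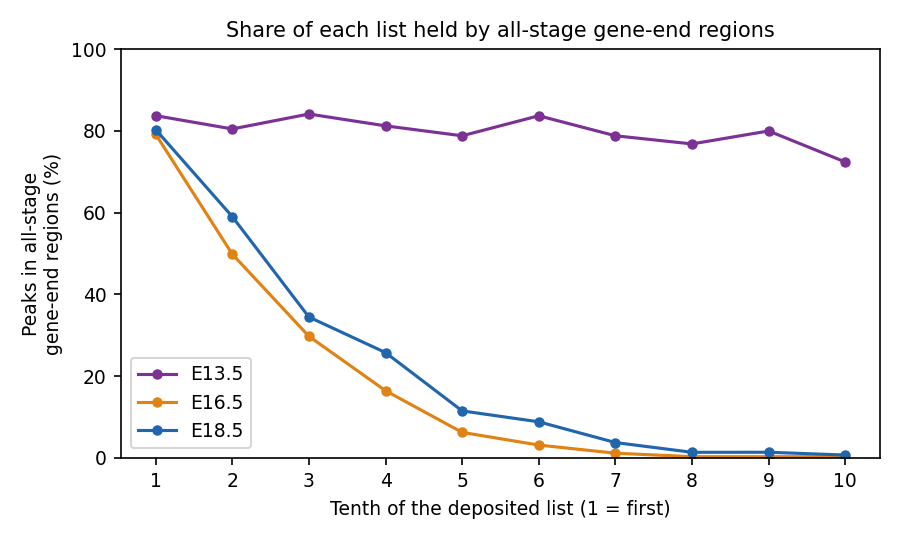
Percent of peaks that fall in all-stage gene-end regions, over 10 successive parts of each deposited list, with 1 line per stage. At E16.5 and E18.5 the line falls from about 80% in the first part (79.2% and 80.3%) to under 1% in the last, and at E13.5 every part lies between 72.4% and 84.1%.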

How the data were processed

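The deposited files are peak lists that give each peak's chromosome, start and end on mm10 in 3 columns, with no score, fold or read count. Per the submitters' processing notes, Trim Galore (0.6.10), the aligner Bowtie2 (2.5.2) and the peak caller MACS2 were used with mm10. No source used here gives their settings or a control library, and the depth behind a list is unknown. Of 5 libraries, 4 lists were used, grouped by antibody and stage.

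CREB peaks were merged by overlap of at least 1 bp. Gene ends (21887 coding genes) came from RefSeq, GRCm38.p6, and strand and promoter stretches from its promoter table, which held a record for 716 of the 846 genes at the regions. Promoters belong to the class of the region within 1000 bp of their start. Motifs were exact letters on both strands. Shares carry 95% Wilson intervals. The members, gene lists and comparisons were chosen with earlier results of these data known; 4 of the list patterns were corrected after values were seen. Named are up to 4 members of each list (full CRE first, then nearest to the end), the 10 regions with the CRE closest to the E18.5 midpoint, the extremes of width, spread and window, 5 regions without H3K4 and a set of fixed genes; Sik1, Jun, Srebf2, Dhcr7, Dnajb9, Hsp90b1 and Zc3h10 were named after their values were seen. Some genes that this rule selects are not reported here. Calculations ran in Python 3.11.15 (pandas 2.3.3, numpy 2.4.6, matplotlib 3.10.9), and the merging and motif search were tested on simulated data. Alternatives to the window, peak width, overlap rule, list length, motif and background are in the closing section.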

Additional observations from a re-analysis of the deposited data

How the results depend on the processing

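The number of regions, 657, stayed between 564 and 698 with windows of 500 or 2500 bp, peaks of 150 bp, a base shared by all stages, midpoints within 200 bp or gene starts alone. The 564 came from gene starts alone, which also left out every gene of unknown strand. Strand was known for 17492 of 21887 coding genes. The number of regions was 437 with as many first peaks of each list as E13.5 holds and 322 with each list cut at its middle. H3K4 overlap, 73.4%, became 37.2% with CREB peaks of 150 bp, and an H3K4 midpoint lay within 500 bp in 79.8% and within 1000 bp in 95.4%. The full CRE share, 14.3%, was 15.4% with 1 promoter a region, 17.7% with starts within 250 bp of the midpoint, 33.9% with up to 1 mismatch and 70.0% for the core. Its excess over E16.5 and E18.5 only, 5.70 points, was 13.9 with 1 mismatch. By place in the E16.5 list, a split chosen after seeing the data, the excess of the exact CRE was -6.13 early and 1.29 later. With 1 mismatch it reversed early too, with 35.8% (32.2 to 39.6) at all-stage promoters against 38.2% (32.1 to 44.7). Later these shares were 26.5% and 16.65%. The excess of the core, 16.1 points, was 5.29 early and 9.06 later. The cause was not tested. Lists above the overall share numbered 29, and 26 against H3K4 genes. No paired analysis was possible because each stage has 1 library; for the same reason no library could be left out. Lists without scores limit every value to presence or absence.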

Other observations

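At 6 of the 87 regions with a full CRE in a promoter stretch there were 2 of them. They were the regions of Tmem198 and Chpf, of Vmac and Ndufa11, of Larp7 and Zgrf1, of Mturn, of Vrk3 and Zfp473, and of Nup133. Both lay inside the merged region at 4 of the 6, and 1 of the 2 did so at Vmac and Ndufa11 and at Larp7 and Zgrf1. A comparison chosen after the sequences had been seen concerned the base next to the CRE. A C directly after the 8 letters, read on either strand, was found at 75 of 92 full CRE sites of all-stage promoters (81.5%, 72.4 to 88.1). The share was 73.5% (64.6 to 80.7) at E16.5 and E18.5 only, 83.6% at E16.5 only, 58.7% (44.3 to 71.7) of 46 sites at H3K4 promoters without CREB and 59.2% of 76 sites at promoters with neither.

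By chromosome, the share of coding genes with an all-stage region was 6.42% (5.10 to 8.06) on chromosome 17 and 5.12% (4.25 to 6.17) on chromosome 7. It was 1.35% (0.788 to 2.29) on chromosome X, with 13 of 966 genes, and 0 of 256 on chromosome Y. Of 29 merged CREB regions on scaffolds outside the assembled chromosomes, 1 held a peak of all 3 stages. An end of a gene that is not protein-coding also lay at 116 of the 657 regions (17.7%), against 16.7% at E16.5 and E18.5 only.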
